A study of Mus musculus with 11 samples.

Results

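The 3 thymic populations of this series were compared with its 3 bone marrow populations. Thymus gave 2 arrays of early thymic precursors, written ETP, 1 array of the double negative 2 stage, written DN2, and 2 arrays of the double negative 3 stage, written DN3. Marrow gave 2 arrays each of hematopoietic stem cells (HSC), of multipotent progenitors primed for lymphoid fates (the labels' lymphoid-primed multipotent progenitors, LMPP) and of common lymphoid progenitors (CLP). The comparison held 5 thymic arrays against 6 marrow arrays, 11 in all, and asked in which genes every thymic array lay above, or below, every marrow array. All cells came from mice of the strain C57BL/6J with no treatment, knockout or transgene named in the labels, and the sources used here do not give the age of the mice, the sort gates or any pooling of animals. Total RNA was hybridised to Affymetrix arrays, and each value is a log2 intensity, so a difference of 1 is a 2-fold difference. Values were available for 19938 genes with a probe set of their own.

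T cells do not complete their development in marrow. Progenitors leave it through the blood, settle in the thymus, and there receive Notch signals from the stroma. Under these signals the early thymic precursor, which keeps some myeloid and natural killer potential, passes through the double negative stages, turns on the genes of the T cell receptor complex, and gives up the regulators of stem cells and multipotent progenitors.

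The thymic and marrow arrays did not overlap in 678 genes (3.4%). In 384 genes every thymic array lay above every marrow array, which is 1.93% of the genes measured, and in 294 genes (1.47%) every thymic array lay below. Tested with limma, with the population as a random block, 288 genes (1.44%) passed an adjusted p of 0.05, 157 of them higher in thymus (0.787%) and 131 lower (0.657%). Both criteria were met by 145 genes above and 118 below, while 415 separated genes did not pass the test. In the same limma test 3086 of the 19938 genes had an unadjusted p under 0.05. The higher genes were led by components of T cells, among them Cd3g, Il2ra and Trat1, and the lower ones by Cd69, Meis1 and the AP-1 subunit Jun. The median difference over all genes was -0.022 on the log2 scale, a value that the normalization of the arrays to 1 distribution holds near 0. Of the 13767 probe sets without a single gene symbol, which are not described further here, 301 (2.19%) did not overlap between the tissues.

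**Figure D1:**
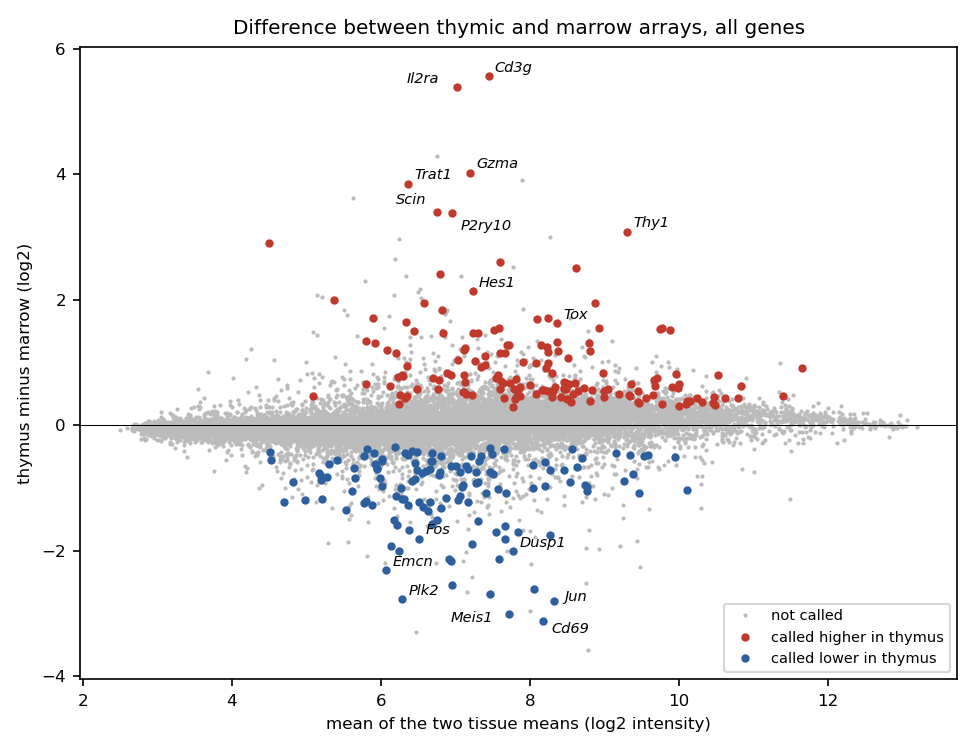
Difference between the mean of the 5 thymic and the mean of the 6 marrow arrays (log2, vertical axis) against the mean level of each gene (log2 intensity, horizontal axis), with the 157 genes called higher in thymus in red, the 131 called lower in blue and the others in grey. The highest called gene is Cd3g at 5.57 and the lowest is Cd69 at -3.11.

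How firmly these counts stand depends on what is taken as the unit of replication. Arrays of 1 population share a source, and the labels do not say that replicates came from separate animals, so the p-values may measure technical spread. The fit used 1 correlation within populations for all genes, 0.157, although genes such as Cd3g differed more between thymic populations than between replicates. When each population was reduced to its mean and 3 thymic means were set against 3 marrow means, 1 gene (0.00502%) passed, and it was Jun, while 2671 genes had an unadjusted p under 0.05. An exact permutation test over 3 and 3 populations cannot give a two-sided p below 0.1. A set of 69 genes, 36 higher and 33 lower, was called in the full fit and in each of the 11 fits that left out 1 array, and these are marked below as called throughout. Leaving out the single DN2 array cut the calls to 78 (40 higher and 38 lower), and leaving out HSC replicate 2, either LMPP array or either DN3 array left 112 to 141.

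**Figure D2:**
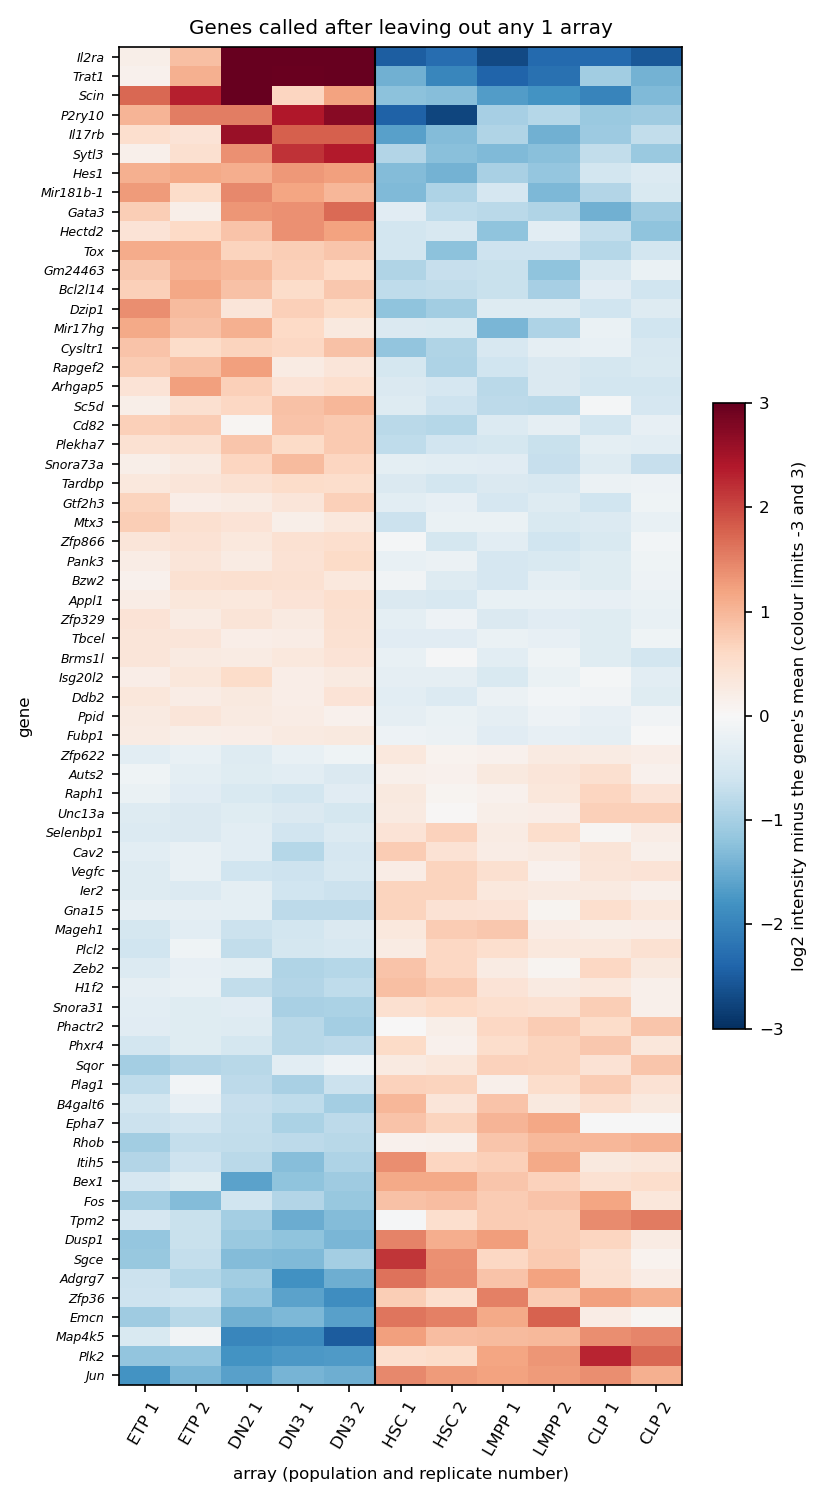
The 69 genes called throughout, as log2 intensity minus the mean of each gene (colour), with the 5 thymic arrays on the left of the line and the 6 marrow arrays on its right. The 36 genes at the top are higher in thymus, from Il2ra downwards, and the 33 at the bottom are lower, ending with Jun.

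Il2ra and Cd44, which mark thymic stages, differed between the thymic populations. Il2ra, one chain of the receptor for interleukin 2 and the CD25 of cell sorting, read 6.96 and 7.68 on the ETP arrays, 11.40 on DN2 and 11.30 and 11.23 on DN3, against a lowest value of 4.07, a median of 4.37 and a highest value of 4.49 on the marrow arrays. Cd44, an adhesion receptor that falls as cells pass to the DN3 stage, read 8.22 and 8.52 on ETP, 7.46 on DN2 and 5.63 and 5.62 on DN3, against 8.08 to 8.61 on marrow. These genes, with Kit, Flt3, Il7r and Thy1, commonly serve to sort such cells, but the sort gates used here are not given. A gene used in a sort can differ by the sort itself, which was not tested. Tissue and the way its cells were isolated cannot be told apart, since all thymic arrays come from thymus and all marrow arrays from marrow. For ETP, DN2 and DN3 the tissue label and the design text give thymus, which was followed, although the free-text description of those samples gives bone marrow.

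Markers of other cells that either tissue could hold gave few calls. Of 14 macrophage genes, 19 of thymic stroma and epithelium and 2 of red blood cells 0 passed the test, against 1.44% of all genes. An unadjusted p under 0.05 was found in 2, 3 and 0 genes, against 3086 of all 19938 genes. The macrophage list averaged 5.37 to 5.66 on thymic arrays and 5.57 to 5.85 on marrow arrays, and the stromal list 5.69 to 5.86 on thymic and 5.70 to 5.92 on marrow arrays. Among 12 genes of later thymocytes 0 were called higher and 1, Cd69, lower, against 0.787% and 0.657% of all genes. Yet 6 of the 12 had an unadjusted p under 0.05. Every thymic array lay above marrow in 1 of the 12 and below it in 2, where 3.4% of all genes did not overlap. The list averaged 5.98 to 6.27 on thymic and 6.21 to 6.56 on marrow arrays. Whether any such cells take part in the differences described here was not tested.

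The largest called difference was that of a CD3 chain. Cd3g, the gamma chain of CD3, read 6.68 and 8.45 on ETP, 11.21 on DN2 and 12.43 and 12.38 on DN3, against 4.51 to 4.97 on marrow with a median of 4.58. Every thymic array was above every marrow array, and the DN arrays were well above the ETP arrays. The thymic mean was 10.23 ± 2.56 and the marrow mean 4.66 ± 0.18 (SD, n = 5 and 6 arrays), a 47.4-fold difference with limma's adjusted p of 0.0129. In RNA of a whole sorted population more cells with a transcript and more transcript per cell cannot be told apart, here and in all values below. Without the DN2 array the adjusted p of Cd3g was 0.0516, the highest of the fits with 1 array left out.

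Trat1, an adaptor that is carried with the T cell receptor, read 6.31 and 7.25 on ETP, 9.30 on DN2 and 9.15 and 9.43 on DN3, against 3.78 to 5.14 on marrow with a median of 4.49. It was 14.4-fold higher in thymus (adjusted p = 0.00712) and called throughout. Cd3g and Trat1 were the 2 called members of 6 measured in the list of the receptor and CD3 chains, against 0.787% of all genes called higher. The median difference of the list was 2.76, and 1 of the 6 was called without DN2. Cd3d, the delta chain, also lay above marrow on every thymic array but ranged from 5.51 to 12.07 there, against 4.40 to 4.82 on marrow, and missed the threshold (adjusted p = 0.069). Cd3e, the epsilon chain, read 6.26 and 6.24 on ETP, 7.07 on DN2 and 9.64 and 9.59 on DN3, against 5.88 to 6.32 on marrow, so that the ETP arrays overlapped with marrow (adjusted p = 0.213).

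Downstream of the receptor, 4 of 22 measured signalling genes rose in thymus, against 0.787% of all genes, and 0 fell. The median difference was 0.55 against -0.022 over all genes. Lat, the membrane adaptor that gathers the signalling complex, averaged 10.52 ± 0.83 on thymic and 8.99 ± 0.22 on marrow arrays, 2.89-fold higher (adjusted p = 0.0336). Lcp2, which encodes the adaptor SLP-76, was nearly flat across the thymus, 9.45 and 9.69 on ETP, 9.89 on DN2 and 9.68 and 9.80 on DN3, against 7.14 to 9.18 on marrow with a median of 8.11. Its difference was 2.92-fold (adjusted p = 0.0417). Grap2, encoding GADS, the link between the other two, was 3.58-fold higher (adjusted p = 0.0418), and Ptpn22, a phosphatase that restrains receptor signalling, 1.52-fold (adjusted p = 0.0418).

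These 4 calls were fragile. Without DN2, HSC replicate 2, either LMPP array or either DN3 array 0 of the 22 were called, 1 without either CLP array, 2 without HSC replicate 1 or ETP replicate 2, and 5 without ETP replicate 1. The highest adjusted p with 1 array left out was 0.0944 for Lat, 0.118 for Lcp2, 0.105 for Grap2 and 0.113 for Ptpn22. Themis, which helps thymocytes through selection, had a larger mean difference of 2.96 that was not called, and its ETP arrays lay near marrow. It read 4.93 and 5.28 on ETP, 8.21 on DN2 and 10.12 and 10.08 on DN3, against 4.31 to 5.42 on marrow (adjusted p = 0.128).

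**Figure D3:**
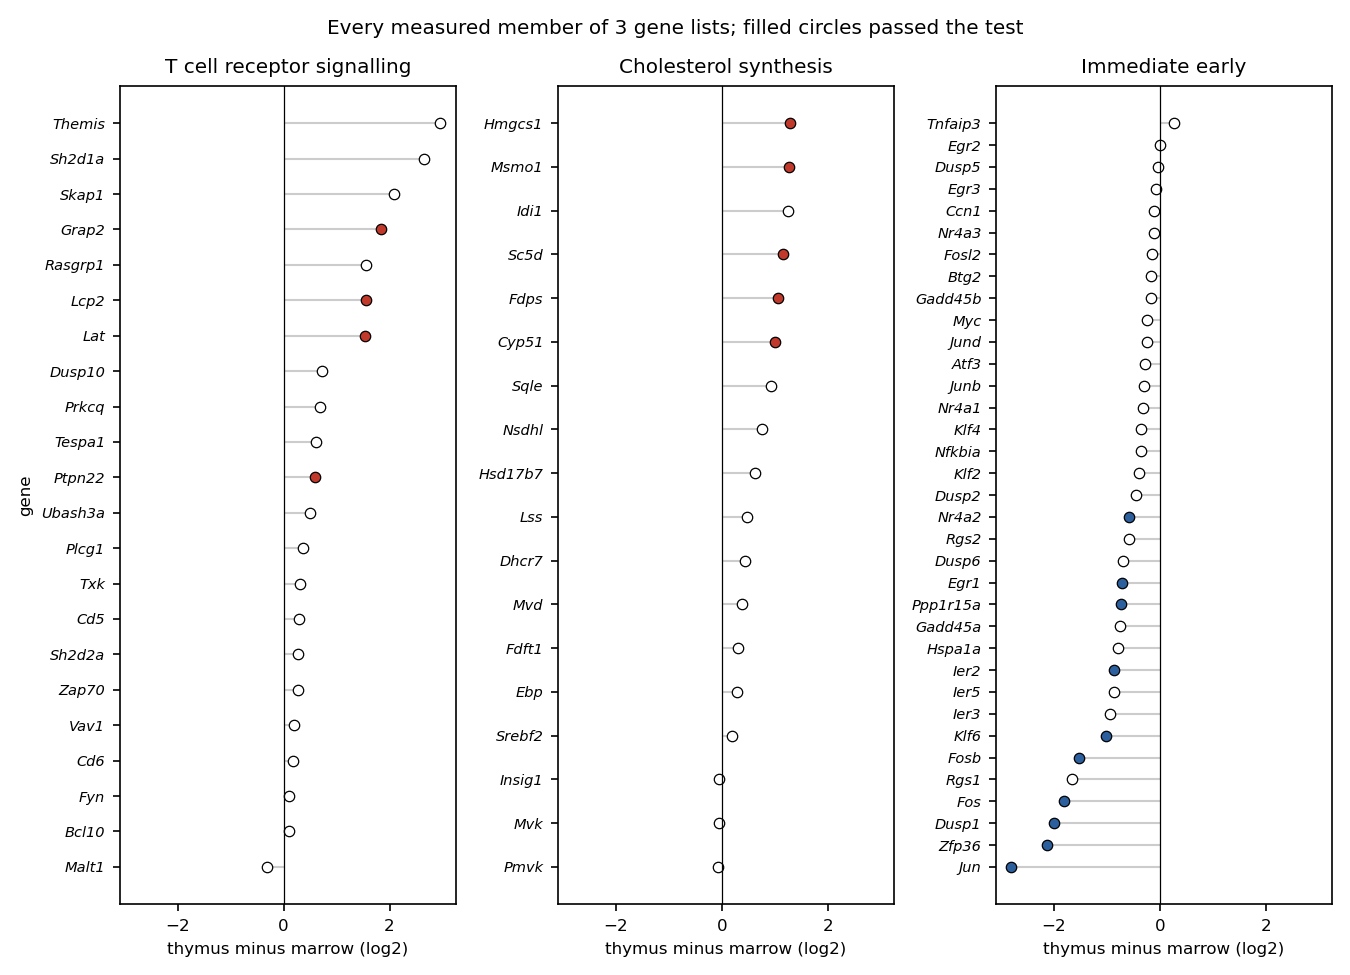
Thymus minus marrow difference (log2) for every measured member of 3 gene lists, with filled circles for genes that passed the test, red higher and blue lower in thymus. In T cell receptor signalling 4 of 22 genes are filled, in cholesterol synthesis 5 of 18, and among immediate early genes 10 of 35, all 10 to the left of 0.

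Of 22 surface receptors of T cells 3 rose and 1 fell, against 0.787% and 0.657% of all genes. Il2ra was 41.7-fold higher in thymus, with means of 9.71 ± 2.20 on thymic and 4.33 ± 0.16 on marrow arrays (adjusted p = 0.00763), and was called throughout. Thy1, a surface glycoprotein of thymocytes, read 9.21 and 9.14 on ETP, 11.23 on DN2 and 12.34 and 12.31 on DN3, against 7.0 to 8.70 on marrow with a median of 7.65. Its 8.48-fold difference (adjusted p = 0.0328) was lost in 8 of the 11 fits with 1 array left out (highest adjusted p 0.0963), namely those without DN2, HSC replicate 2 or any LMPP, CLP or DN3 array. Cd96, a receptor of T and natural killer cells, was 2.28-fold higher (adjusted p = 0.0418), although 1 thymic array, ETP replicate 1 at 8.26, lay below the highest marrow array at 8.33, and its highest adjusted p with 1 array left out was 0.123. Without DN2, HSC replicate 2, either LMPP array, CLP replicate 2 or either DN3 array 1 of the 22 was called higher.

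Cd69, a lectin that holds lymphocytes in tissue and is switched on early after activation, was the receptor that fell. Its values were 7.55 and 7.60 on ETP, 6.28 on DN2 and 5.31 and 6.39 on DN3, against 8.51 to 10.98 on marrow with a median of 9.83. The gap of 0.91 between the nearest arrays separated the tissues, and the difference was 8.63-fold (adjusted p = 0.0127). Without DN2 the adjusted p was 0.0503, the highest with 1 array left out.

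Among 23 transcription factors of the T lineage 3 rose, Gata3, Tox and Nfatc3, and 1 fell, Egr1, against 0.787% and 0.657% of all genes. Gata3, a zinc finger factor needed from the first thymic stages on, read 7.22 and 6.67 on ETP, 7.82 on DN2 and 7.85 and 8.19 on DN3, against 5.04 to 6.15 on marrow with a median of 5.63. It was 3.87-fold higher (adjusted p = 0.00555) and called throughout. Tox, an HMG-box factor of thymocyte development, differed in shape, since its ETP values of 9.40 and 9.38 were the highest, followed by 8.96 on DN2 and 9.02 and 9.12 on DN3, against 7.06 to 7.75 on marrow with a median of 7.67. The 3.08-fold difference of Tox had an adjusted p of 0.000555 and was called throughout.

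Nfatc3, a calcium-regulated factor, was 1.36-fold higher (adjusted p = 0.0454) and lost its call in 8 of 11 fits with 1 array left out (highest adjusted p 0.103), those without DN2, HSC replicate 2, LMPP replicate 1 or 2, CLP replicate 1, ETP replicate 2 or either DN3 array. Bcl11b, the factor tied to commitment, read 6.16 and 6.13 on ETP, 6.97 on DN2 and 7.26 and 7.11 on DN3, against 5.98 to 6.43 on marrow. The ETP arrays lay within the marrow range, and Bcl11b did not pass the test (adjusted p = 0.216).

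In the Notch pathway 1 target gene was higher in thymus. Hes1, a repressor that Notch switches on, read 8.19 and 8.27 on ETP, 8.24 on DN2 and 8.44 and 8.36 on DN3, against 5.72 to 6.72 on marrow with a median of 6.06. The thymic arrays lay close together, at a mean of 8.30 ± 0.10 against 6.16 ± 0.40 on marrow, and CLP was the nearest marrow population. The difference was 4.39-fold (adjusted p = 0.000249) and called throughout. Of 30 pathway genes measured Hes1 was the 1 called (2 without CLP replicate 2), against 0.787% of all genes called higher. The median difference was -0.02. Notch1, the receptor, read 7.67 and 7.45 on ETP, 7.88 on DN2 and 8.19 and 8.46 on DN3, against 6.31 to 7.5 on marrow with a median of 6.98, and its 2.02-fold difference missed the threshold (adjusted p = 0.0549).

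Other genes higher in thymus are not usual members of a T cell list. Scin, an actin-severing protein, read 8.33 and 8.94 on ETP, 9.96 on DN2 and 7.25 and 7.82 on DN3, against 4.63 to 5.38 on marrow with a median of 5.10. It peaked in DN2, stayed above marrow on every thymic array, and was 10.5-fold higher (adjusted p = 0.00277). P2ry10, a receptor for lysophospholipids, read 7.82 and 8.35 on ETP, 8.34 on DN2 and 9.21 and 9.54 on DN3, against 4.05 to 5.96 on marrow with a median of 5.72, a 10.4-fold difference (adjusted p = 0.00309). Both were called throughout.

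Il17rb, a receptor chain for interleukin 25, was 6.07-fold higher (adjusted p = 0.00673), with 7.98 and 7.90 on ETP, 10.08 on DN2 and 9.28 and 9.27 on DN3, against 5.84 to 6.75 on marrow with a median of 6.28. Sytl3, a vesicle-trafficking protein, was 5.29-fold higher (adjusted p = 0.00908), and both were called throughout. Rras2, a small GTPase, was 5.67-fold higher (adjusted p = 0.0161), with an adjusted p of 0.0516 without DN2. In each of these 3 genes the lowest thymic array came from ETP.

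From the list of natural killer and innate lymphoid genes 2 of 25 rose, Gzma and Cd160, against 0.787% of all genes, while the median difference of the list was -0.15. The thymic patterns of the 2 genes ran in opposite ways. Gzma, a cytotoxic serine protease, read 6.52 and 7.66 on ETP, 9.53 on DN2 and 11.16 and 11.21 on DN3, against 4.82 to 5.87 on marrow with a median of 5.10, 16.3-fold higher (adjusted p = 0.0249). Cd160, a receptor of natural killer and some T cells, read 7.23 and 7.69 on ETP, 7.28 on DN2 and 5.62 and 5.90 on DN3, against 4.80 to 5.14 on marrow with a median of 5.07, 3.27-fold higher (adjusted p = 0.0292). Without DN2, HSC replicate 2 or either LMPP array 0 of the 25 were called higher, and 1 was without CLP replicate 1 or either DN3 array. The highest adjusted p with 1 array left out was 0.0796 for Gzma and 0.0921 for Cd160. The list as a whole averaged 5.56 to 6.65 on thymic and 5.90 to 6.33 on marrow arrays.

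**Figure D4:**
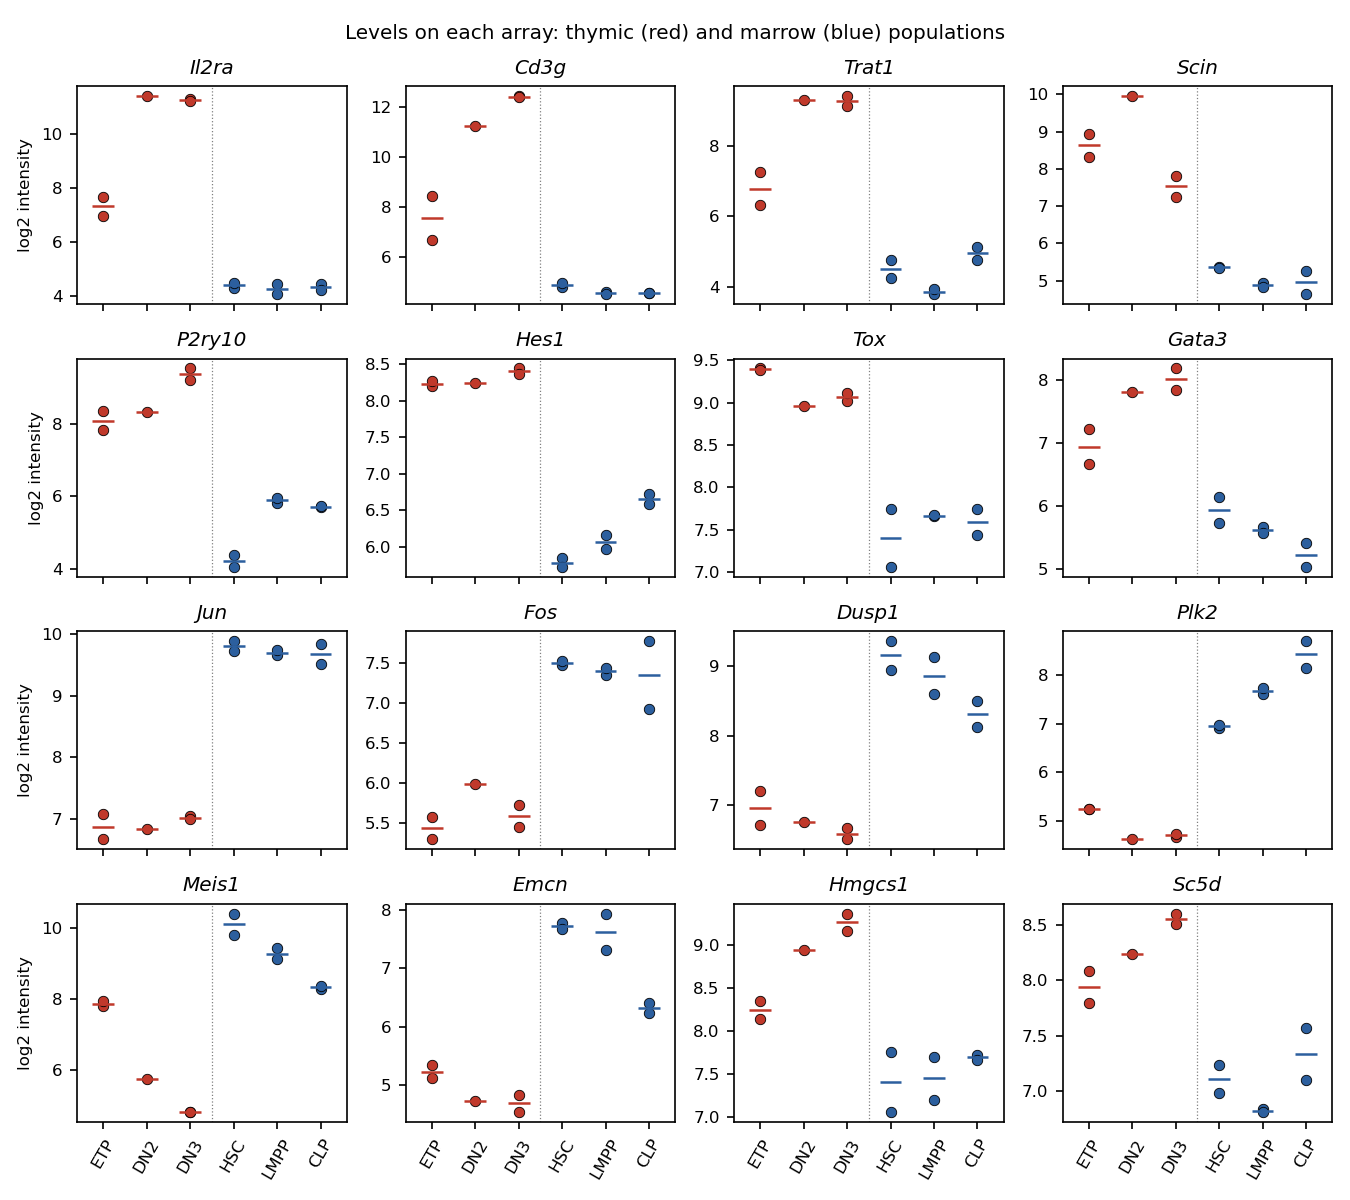
Log2 intensity of 16 genes on each array (points, with a bar at the population mean; DN2 has 1 array), thymic populations in red on the left of the dotted line and marrow populations in blue on its right; each panel has its own vertical scale. Il2ra, Cd3g and Trat1 climb from ETP to the DN arrays, Hes1, Tox and Jun form a step between tissues, and Meis1 is lower in DN3 than in ETP and in CLP than in HSC.

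Some enzymes of cholesterol synthesis also rose. Of 18 measured genes 5 were called higher, 0 lower and 13 not called, against 0.787% of all genes higher, and the median difference was 0.55. Hmgcs1, the synthase that makes the HMG-CoA from which the pathway starts, read 8.35 and 8.14 on ETP, 8.95 on DN2 and 9.17 and 9.37 on DN3, against 7.05 to 7.76 on marrow with a median of 7.68. It was 2.43-fold higher (adjusted p = 0.0231). Sc5d, a desaturase near the end of the pathway, read 7.79 and 8.08 on ETP, 8.23 on DN2 and 8.50 and 8.60 on DN3, against 6.81 to 7.56 on marrow with a median of 7.04, a 2.22-fold difference (adjusted p = 0.00854) that was called throughout.

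The other 3 called enzymes were Msmo1, which removes methyl groups from sterols, 2.42-fold higher (adjusted p = 0.0284), Fdps, which makes farnesyl diphosphate, 2.10-fold (adjusted p = 0.0212), and Cyp51, a sterol demethylase, 2.01-fold (adjusted p = 0.0359). In all 5 the lowest thymic array came from ETP. Without DN2, LMPP replicate 1 or either DN3 array 1 enzyme was called, Sc5d, and 3 were without HSC replicate 2. The highest adjusted p with 1 array left out was 0.0784 for Hmgcs1, 0.0899 for Msmo1, 0.0776 for Fdps and 0.095 for Cyp51. Srebf2, the factor that drives the pathway, was not called.

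The promoter of Hmgcs1 is shown because the CCAAT box, a site common in sterol-regulated promoters, recurs in it. The sequence is 5′ to 3′ on the plus strand of GRCm38.p6 (RefSeq), chr13:119690101-119690350, the 250 bases before the gene start, with the 3 copies of CCAAT or its reverse complement ATTGG in capitals.
Hmgcs1: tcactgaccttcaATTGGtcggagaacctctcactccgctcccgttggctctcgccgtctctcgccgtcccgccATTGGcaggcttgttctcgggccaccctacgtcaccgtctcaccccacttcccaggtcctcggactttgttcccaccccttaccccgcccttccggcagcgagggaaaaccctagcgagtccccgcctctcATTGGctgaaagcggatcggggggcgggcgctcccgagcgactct
The letters CCAAT, on either strand from 250 bases before to 50 after the start, stood in the promoters of all 4 called cholesterol genes with an entry and in 37.4% of the 19177 promoters of genes tested. This motif was chosen after the genes were known, and a match is a description of letters, not of binding.

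Immediate early genes, which respond within minutes to growth factors, stress or handling, gave the most calls lower in thymus among the 31 gene lists. Of 35 measured, 10 fell and 0 rose, against 0.657% of all genes lower, and the median difference was -0.46. Jun read 6.67 and 7.08 on ETP, 6.83 on DN2 and 7.05 and 7.0 on DN3, against 9.51 to 9.88 on marrow with a median of 9.73. The tissues formed 2 tight groups, 6.92 ± 0.17 on thymic and 9.72 ± 0.13 on marrow arrays, with a gap of 2.43 between the nearest arrays. The difference was 6.97-fold (adjusted p = 6.18e-08), and Jun was the gene called when populations were reduced to means (adjusted p = 0.00032).

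Fos, the partner of Jun in AP-1, read 5.58 and 5.30 on ETP, 5.99 on DN2 and 5.72 and 5.46 on DN3, against 6.93 to 7.77 on marrow with a median of 7.45, 3.49-fold lower (adjusted p = 0.000603). Dusp1, a phosphatase that switches off MAP kinases, read 6.72 and 7.21 on ETP, 6.77 on DN2 and 6.67 and 6.51 on DN3, against 8.13 to 9.37 on marrow with a median of 8.78, 4.02-fold lower (adjusted p = 0.00167). Zfp36, which directs the decay of inflammatory messages, read 7.06 and 7.09 on ETP, 6.53 on DN2 and 6.07 and 5.83 on DN3, against 8.19 to 9.18 on marrow with a median of 8.61, 4.39-fold lower (adjusted p = 0.00277). All 3, and Ier2, 1.81-fold lower (adjusted p = 0.00438), were called throughout.

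Fosb fell 2.88-fold (adjusted p = 0.0254), Klf6 2.02-fold (adjusted p = 0.0297), Ppp1r15a, a subunit that reverses the stress block on translation, 1.67-fold (adjusted p = 0.0409), Egr1 1.64-fold (adjusted p = 0.0181) and the nuclear receptor Nr4a2 1.49-fold (adjusted p = 0.0341). Without DN2 5 of the list were called, and 6 without either DN3 array. The highest adjusted p with 1 array left out was 0.0604 for Fosb, 0.0944 for Klf6, 0.121 for Ppp1r15a, 0.0669 for Egr1 and 0.0868 for Nr4a2. The list averaged 6.54 to 6.88 on thymic and 7.21 to 7.47 on marrow arrays. Of the 35 genes 21 had an unadjusted p under 0.05, against 3086 of all 19938 genes. Every thymic array lay below every marrow array in 12 of the 35 and above in 0, against 1.47% and 1.93% of all genes. Egr2, Egr3, Dusp5 and Junb were not called. Rgs1, a brake on chemokine receptor signals, read 9.98 and 10.44 on ETP, 8.31 on DN2 and 5.57 and 5.56 on DN3, against 8.73 to 10.19 on marrow, and was not called (adjusted p = 0.375). What cells met during isolation from either tissue was not measured, and its part in these values cannot be told apart from the tissue.

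The promoters of Jun and Fos are shown because both subunits of AP-1 fell and were called throughout. Both are 5′ to 3′ from GRCm38.p6 (RefSeq) and end at the base before the gene start. Jun covers chr4:95052223-95052472 on the minus strand, with capitals on TGACATCA, an AP-1 type site of this promoter. Fos covers chr12:85473770-85473889 on the plus strand, with capitals on the TATA box TATAAA.
Jun: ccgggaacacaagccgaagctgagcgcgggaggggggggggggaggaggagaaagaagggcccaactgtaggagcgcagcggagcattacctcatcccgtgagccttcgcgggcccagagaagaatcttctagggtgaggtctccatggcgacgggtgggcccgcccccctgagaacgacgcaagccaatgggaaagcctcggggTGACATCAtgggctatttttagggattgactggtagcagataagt
Fos: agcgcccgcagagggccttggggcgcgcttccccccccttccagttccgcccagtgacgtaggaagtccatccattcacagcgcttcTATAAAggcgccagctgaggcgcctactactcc
TGACATCA, on either strand in the window of 250 bases before to 50 after the start, was found in 2 of 8 promoters of called immediate early genes, those of Jun and Klf6, and in 2.5% of all 19177 promoters. The related TGACGTCA was found in 2 of the 8, those of Dusp1 and Ppp1r15a, and in 2.4% of all. Both motifs were chosen after the genes were known.

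Of 32 genes associated with stem cells 3 fell, Meis1, Hlf and Egr1, against 0.657% of all genes, and 0 rose. Of these 32, 0 were called without DN2 and 1 without HSC replicate 1 or any LMPP or DN3 array. Among 26 progenitor transcription factors 3 fell, against 0.657% of all genes, and 0 rose, with a median difference of -0.40. Meis1 and Hlf were in both lists, so Cebpa was the call that the progenitor list added. Egr1 was also in the T lineage and immediate early lists. Meis1, a homeobox cofactor of HOX proteins, read 7.78 and 7.94 on ETP, 5.75 on DN2 and 4.82 and 4.81 on DN3, against 8.28 to 10.39 on marrow with a median of 9.27. The ETP arrays lay just under CLP, the lowest marrow population, and DN3 far below, and the difference was 8.03-fold (adjusted p = 0.0407). Hlf, a stem cell bZIP factor, read 6.59 and 6.49 on ETP, 6.11 on DN2 and 6.15 and 6.11 on DN3, against 6.95 to 9.34 on marrow with a median of 8.44, 3.69-fold lower (adjusted p = 0.0442). Cebpa, the driver of granulocyte and monocyte fates, was 1.94-fold lower (adjusted p = 0.0283).

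None of these 3 was called throughout, and without DN2, HSC replicate 2, either LMPP array or DN3 replicate 2, 0 of the 26 were called, with 1 called without HSC replicate 1 or DN3 replicate 1. The highest adjusted p with 1 array left out was 0.114 for Meis1, 0.121 for Hlf and 0.0899 for Cebpa. Mef2c, a factor of lymphoid and myeloid progenitors, lay below marrow on every thymic array, with 9.11 and 9.37 on ETP, 7.49 on DN2 and 5.90 and 5.63 on DN3, against 9.51 to 10.33 on marrow, but missed the threshold (adjusted p = 0.0688). Spi1, which encodes PU.1, read 7.40 and 7.80 on ETP, 6.69 on DN2 and 5.83 on both DN3 arrays, against 6.95 to 7.79 on marrow (adjusted p = 0.355), and Lyl1, a stem cell bHLH factor, overlapped too (adjusted p = 0.558).

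Several genes used to describe progenitors did not divide the tissues. Flt3, the receptor kinase of lymphoid priming, read 8.55 and 8.66 on ETP and 4.99 to 5.23 on DN2 and DN3, against 7.13 to 10.75 on marrow, so ETP lay within the marrow range (adjusted p = 0.146). Kit, the stem cell factor receptor, read 9.50 and 9.23 on ETP, 9.24 on DN2 and 7.20 and 6.84 on DN3, against 8.10 to 9.83 on marrow (adjusted p = 0.685). Il7r, the interleukin 7 receptor chain, ranged from 7.27 to 9.81 on thymic and from 6.29 to 10.75 on marrow arrays (adjusted p = 0.855). Of the 22 cytokine receptors measured 0 passed the test, against 1.44% of all genes. Of these 22, 8 had an unadjusted p under 0.05, against 3086 of all 19938 genes.

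The B lineage list averaged 6.56 to 6.77 on thymic and 6.23 to 7.73 on marrow arrays. Ebf1, the factor that opens the B cell program, read 4.21 to 4.45 on thymic arrays, against 4.09 to 9.32 on marrow with a median of 5.08, and the high marrow arrays were those of CLP (adjusted p = 0.359). Bst1, a surface enzyme of B progenitors and other cells, had the largest difference of the list and went the other way, with 5.82 and 6.00 on ETP, 7.13 on DN2 and 9.16 and 9.52 on DN3, against 4.41 to 5.79 on marrow with a median of 5.07. Every thymic array of Bst1 was above marrow, but the 5.21-fold difference did not pass (adjusted p = 0.0922). Of 29 B lineage genes 0 passed the test, against 1.44% of all genes, and the median difference was -0.34. Of 24 homing and chemokine receptors 0 passed as well. An unadjusted p under 0.05 was found in 10 of the 29 and 5 of the 24, against 3086 of all 19938 genes. Ccr9, a receptor for a thymic chemokine, ranged from 4.87 on DN2 to 7.84 on DN3, against 5.12 to 6.86 on marrow (adjusted p = 0.808), and S1pr1, a receptor that guides cells into blood, was 1.72-fold lower without passing (adjusted p = 0.141).

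Further genes lower in thymus came from other families. Plk2, a polo-like kinase, read 5.24 and 5.25 on ETP, 4.62 on DN2 and 4.68 and 4.73 on DN3, against 6.91 to 8.69 on marrow with a median of 7.67, 6.83-fold lower (adjusted p = 0.00167). Map4k5, a kinase upstream of stress-activated pathways, read 6.60 and 6.96 on ETP, 5.11 on DN2 and 5.17 and 4.57 on DN3, against 7.99 to 8.53 on marrow with a median of 8.17, 5.82-fold lower (adjusted p = 0.00861). Emcn, the sialomucin endomucin of endothelium and stem cells, read 5.12 and 5.34 on ETP, 4.73 on DN2 and 4.84 and 4.54 on DN3, against 6.23 to 7.94 on marrow with a median of 7.49, 4.95-fold lower (adjusted p = 0.00555). All 3 were called throughout.

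Adgrg7, an adhesion G protein-coupled receptor, was 4.36-fold lower (adjusted p = 0.00438), Sgce, the imprinted sarcoglycan epsilon, 4.02-fold (adjusted p = 0.0109) and Itih5, a hyaluronan-binding protein, 3.16-fold (adjusted p = 0.00408), each called throughout. Gcnt2, which branches cell surface sugars, was 6.45-fold lower (adjusted p = 0.0181), and its call was lost without DN2 or either DN3 array (highest adjusted p 0.0629). Gatm, an enzyme of creatine synthesis, was 4.45-fold lower (adjusted p = 0.0269) and lost without DN2, HSC replicate 2, LMPP replicate 1 or either DN3 array (highest adjusted p 0.0676).

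The remaining lists gave at most 1 call in a direction, against 0.787% of all genes called higher and 0.657% called lower. S100a9, a calcium-binding protein of neutrophils, read 8.16 and 8.61 on ETP, 7.88 on DN2 and 7.61 and 7.63 on DN3, against 6.04 to 7.33 on marrow with a median of 6.45, 2.76-fold higher (adjusted p = 0.0188, and 0.0587 without DN2, the highest with 1 array left out). The neutrophil granule genes Ltf and Camp were not called, and the list of 32 neutrophil and monocyte genes averaged 5.82 to 7.22 on thymic and 6.65 to 7.35 on marrow arrays. Ccl9, a chemokine of myeloid cells, was 2.98-fold lower (adjusted p = 0.0418). Among 21 dendritic and MHC class II genes Tcf4, the E protein of plasmacytoid dendritic cells, was 1.94-fold lower (adjusted p = 0.0448). Among 8 Gimap genes Gimap8, a lymphocyte GTPase, was 1.61-fold lower (adjusted p = 0.0285). The tissues were not separated in these genes. The highest thymic and lowest marrow arrays read 6.61 and 6.55 for Ccl9, 8.51 and 8.45 for Tcf4 and 7.14 on both for Gimap8. Nhej1, an end joining factor, was 1.27-fold higher (adjusted p = 0.0409). In the TGF-beta list of 25 measured genes the receptor Tgfbr1 was 1.87-fold higher (adjusted p = 0.0323) and the activin receptor Acvr2a 1.86-fold lower (adjusted p = 0.0428). Each of these last 6 genes lost its call in 7 to 9 of the 11 fits with 1 array left out, DN2, LMPP replicate 2 and DN3 replicate 1 among them in all 6, with adjusted p up to 0.13.

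Genes of cell division gave no calls, a result near the share of 1.44% called over all genes. Of 29 genes of G2 and mitosis 0 passed the test, with 1 at an unadjusted p under 0.05 and a median difference of 0.00, and the list averaged 9.05 to 9.43 on thymic and 9.03 to 9.72 on marrow arrays. Of 29 DNA replication genes 0 passed as well, with 5 at an unadjusted p under 0.05 and a median of 0.09. Over all 19938 genes 3086 had an unadjusted p under 0.05. Mki67, the proliferation marker, averaged 10.05 ± 0.20 on thymic and 10.39 ± 0.22 on marrow arrays (adjusted p = 0.214).

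**Figure D5:**
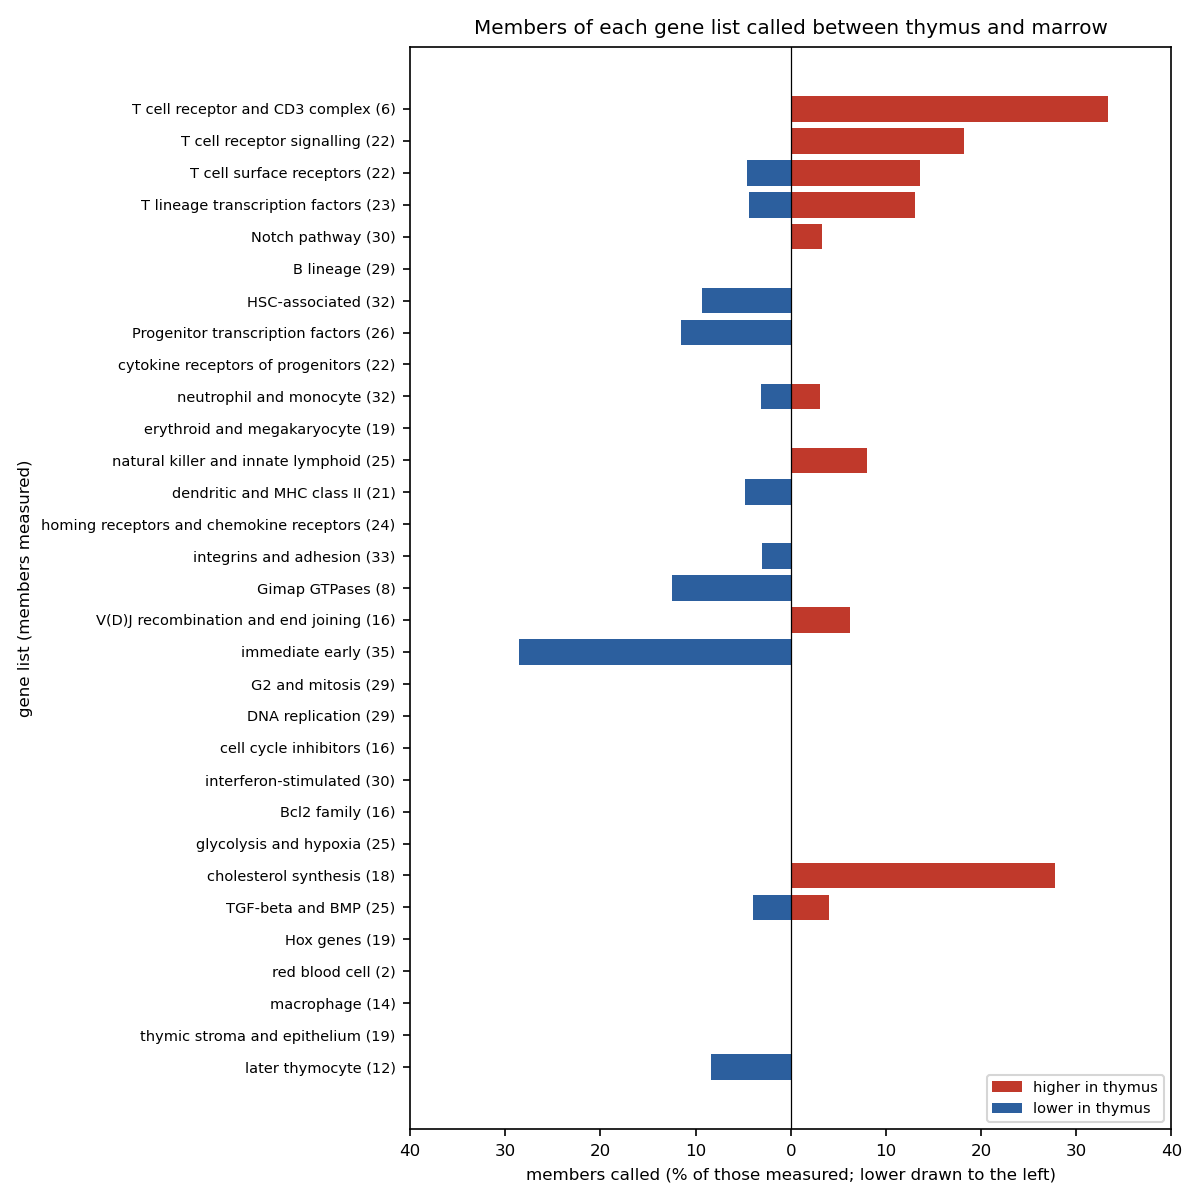
Share of the measured members of each of 31 gene lists (number measured in brackets) called higher in thymus (red, to the right) or lower (blue, to the left), in percent. The longest bars to the right are the T cell receptor and CD3 list (2 of 6) and cholesterol synthesis (5 of 18), and the longest to the left is the immediate early list (10 of 35).

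The separated genes differed in which population stood next to the other tissue. Among the 384 genes above marrow the lowest thymic array came from ETP in 248 (64.6%), from DN3 in 101 (26.3%) and from DN2 in 35 (9.1%), where ETP and DN3 have 2 arrays and DN2 has 1. Among the 294 below, the highest thymic array came from ETP in 184 (62.6%). The farthest thymic array came most often from DN3, in 189 (49.2%) of the genes above and 173 (58.8%) of those below. On the marrow side the nearest array came from CLP in 165 (43.0%) of the genes above and 142 (48.3%) of those below, from HSC in 155 and 88, and from LMPP in 64 and 64.

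A smaller set behaved as a step between tissues. In 15 genes (0.0752%), 12 above and 3 below, the gap between the nearest arrays was wider than the whole range of arrays within either tissue. They were chosen after the values were seen. Besides Jun, Hes1, Tox and Fos these were Mir181b-1, Bcl2l14, Arhgap5, Plekha7, Tardbp, Appl1, Zfp329, Tbcel, Ppil4 and Ncoa5, all above, and Zfp622 below. Bcl2l14, a distant BCL2 relative, read 7.10 and 7.54 on ETP, 7.25 on DN2 and 6.93 and 7.20 on DN3, against 5.39 to 6.05 on marrow with a median of 5.68, 2.84-fold higher (adjusted p = 0.000555). Tardbp, which encodes the RNA-binding protein TDP-43, read 10.25 to 10.49 on thymic and 9.38 to 9.79 on marrow arrays, 1.75-fold higher (adjusted p = 0.00167). Both are called throughout, whereas Ppil4 and Ncoa5 are not.

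Of 298 microRNA genes 2 were called higher and 1 lower, few beside the 0.787% and 0.657% of all genes, so the counts show nothing particular to microRNA genes. All 3 are named after their values were seen. The probe sets read the precursor or the transcript around it, not the mature microRNA. The mature sequences from RefSeq (GRCm38.p6), 5′ to 3′ with the seed (bases 2 to 8) in capitals, are shown so that each can be set beside the genes that share its seed.
miR-181b-5p: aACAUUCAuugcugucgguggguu
miR-363-3p: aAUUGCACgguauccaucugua
miR-17-5p: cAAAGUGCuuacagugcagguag
Mir181b-1 lies at chr1:137966650-137966673 (plus strand, mature arm), Mir363 at chrX:52741697-52741718 (minus) and Mir17 at chr14:115043684-115043706 (plus).

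Mir181b-1, of a family that tunes T cell receptor signals, read 6.57 and 5.83 on ETP, 6.72 on DN2 and 6.47 and 6.27 on DN3, against 3.95 to 4.82 on marrow with a median of 4.38, 3.99-fold higher (adjusted p = 0.00167), and was called throughout. The 5 other measured genes with the seed ACAUUCA, Mir181a-1, Mir181a-2, Mir181b-2, Mir181c and Mir181d, were not called, with differences from -0.27 to -0.07. Mir363 read 4.95 and 3.85 on ETP, 6.69 on DN2 and 7.11 and 7.12 on DN3, against 2.89 to 3.22 on marrow with a median of 3.05, 7.46-fold higher (adjusted p = 0.021, lost without DN2, LMPP replicate 1 or either DN3 array, up to 0.0731). The other measured genes with its seed, or with that of miR-17-5p, were not called.

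Mir17 and the long transcript that carries it went opposite ways. The probe set of Mir17 read 5.23 and 5.12 on ETP, 5.03 on DN2 and 5.41 and 5.0 on DN3, against 5.86 to 6.93 on marrow with a median of 6.43, 2.35-fold lower (adjusted p = 0.0129, and 0.0529 without DN2, the highest with 1 array left out). The probe set of the host transcript Mir17hg read 7.92 and 7.66 on ETP, 7.83 on DN2 and 7.37 and 7.07 on DN3, against 5.39 to 6.58 on marrow with a median of 6.25, 2.76-fold higher (adjusted p = 0.00858), and was called throughout. In both probe sets the thymic and marrow arrays did not overlap.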

How the data were processed

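The authors made the deposited values, log2 intensities, by RMA, per the submitters' processing notes. RMA subtracts background, gives all arrays the same distribution, which hides a shift common to most genes, and reduces each probe set to 1 value. The sources used here give no RMA version, chip definition or genome build. RNA was taken with Trizol and labelled with an Affymetrix whole-transcript kit, per the labels. Array medians lay between 6.01 and 6.12, and precision is limited by how few arrays there are.

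Of 35556 probe sets, 21789 had 1 gene symbol in the platform annotation, 1621 several and 12146 none. The probe set with the highest mean stood for each of 999 genes with several, leaving 19938 genes, none removed for low intensity. Folds are 2 to the power of the difference between tissue means. The test was limma 3.58.1 (R 4.3.3), 2 tissues over 11 arrays, with population as a random block (duplicateCorrelation), moderated by eBayes, two-sided, Benjamini-Hochberg adjusted over all genes and called at adjusted p under 0.05. It was tried on 1 simulated set of 19938 genes with 200 changed. It called 83 of the genes changed by 1 log2 and 99 of those changed by 2, but also 30 unchanged genes. Population means called 69 and 97 of the changed genes and 5 unchanged ones. Some of the 288 calls may thus be false beyond the nominal rate.

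The genes named are the 12 highest and 12 lowest called differences without overlap, the 8 widest gaps each way, up to 4 called members of each of 31 gene lists (or the member that differed most), and a panel of 21 genes, 20 of them measured. Predicted genes, receptor segments, histones, olfactory, microRNA and small nucleolar RNA genes were left out of the first 2 parts. Not every gene of the rule is named, and genes outside it were chosen after their values were seen. The comparison, members and lists were chosen with earlier results of these data known. Promoter and microRNA sequences come from RefSeq tables (GRCm38.p6). Python 3.11.15, pandas 2.3.3 and matplotlib 3.10.9 handled tables and figures. Alternatives were other models of the arrays, thresholds, dim filters (intensity above 5 or 6 on 2 arrays), normalizations, probe set rules, and each population or array left out.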

Additional observations from a re-analysis of the deposited data

Results flagged for a closer look

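Of 146 groups of 5 or 6 arrays examined for the genes named by the rule, 2 held an array far from the others, where chance gives about 1 in 20 groups. The lowest marrow value of Cd160 was 4.80 on LMPP replicate 1, with the nearest marrow array at 5.05, a gap of 0.72 of the marrow range. The highest marrow value of Fdps was 8.49 on HSC replicate 2, with the nearest at 7.98, a gap of 0.64 of the range, and this array accounts for the overlap of Fdps between the tissues. Among the 13767 probe sets without a single gene symbol, which the comparisons above did not use, 30 were called higher in thymus and 23 lower, and the tissues did not overlap in 301 (2.19%).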

How the results depend on the processing

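Counts of genes called in all, higher and lower in thymus (288, 157 and 131) moved with the model: 476, 289 and 187 in a plain fit of 2 groups, 1, 0 and 1 with population means, 2122, 1186 and 936 as a contrast of 6 means, and 561, 339 and 222 with array weights. A replicate block gave 189, 108 and 81. Deviations of arrays with the same number correlated between -0.258 and 0.283, positive among LMPP, CLP, ETP and DN3 and negative between HSC and each of these, which did not meet the rule that every pair exceed 0.1, so the block was not used for the main counts; a partial pairing remains possible. Without ETP the counts were 791, 471 and 320, without DN2 78, 40 and 38, without DN3 103, 76 and 27, and without LMPP 55, 28 and 27. Adjusted p under 0.01 left 50, 29 and 21, and at least 2-fold 107, 53 and 54. Quantiles normalized once more left 97 higher, and centring on medians 82 lower. With 1 array left out the counts ranged from 78 to 411 in all, 40 to 276 higher and 38 to 135 lower, lowest without DN2 (otherwise 112, 60 and 50, lowest without a DN3 array); each omission of HSC replicate 2 (125), LMPP replicate 1 (119) or 2 (141), DN3 replicate 1 (112) or 2 (114) cut the total by over 1.5 times. Genes above marrow (384) numbered 26 with a gap of at least 0.5, 9 with 1, 1362 without ETP, 680 without DN3, 864 without HSC, 742 without CLP, and 429 to 810 with 1 array left out. Genes below (294) numbered 23, 4, 1074, 542, 802, 705, and 337 to 520. The largest of these shifts came without ETP replicate 1 (810 above, 494 below), ETP replicate 2 (446 below) and HSC replicate 1 (520 below). Leaving out arrays can add separated genes by construction; the cause of the other shifts was not tested. Of the 73 genes named by the rule, 14 of 48 called ones passed under every setting but population means, and 0 called ones changed sign. Signs turned in 5 uncalled genes: Alas2 to 0.07 without DN3 and between -0.10 and 0.05 with 1 array left out (0.05 without DN3 replicate 1), Il7r to -0.13 without DN3 and -0.60 without HSC, Kit to 0.37 without DN3, Ccr9 to -0.26 without DN3 and -0.16 without HSC, and Lyl1 to 0.11 without DN3. Dim genes near the floor of the intensity scale have compressed differences.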

Other observations

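Small nucleolar RNA genes mostly guide the modification of ribosomal RNA. Of 52 measured, 4 rose and 1 fell, against 0.787% and 0.657% of all genes, and the median difference was 0.33 against -0.022 over all genes. Snora73a read 8.38 and 8.47 on ETP, 8.83 on DN2 and 9.15 and 8.85 on DN3, against 7.5 to 7.91 on marrow with a median of 7.83, 1.99-fold higher (adjusted p = 0.00804). Snora73b was 2.5-fold higher (adjusted p = 0.0295), Snora33 1.75-fold (adjusted p = 0.037) and Snord87 1.79-fold (adjusted p = 0.0266), and these 3 lost their calls without DN2, LMPP replicate 1 and DN3 replicate 1 among others (adjusted p up to 0.103). Snora31 was 2.10-fold lower (adjusted p = 0.00804). Snora73a and Snora73b are close copies whose probes may read either gene, and all 5 genes were chosen after their values were seen.

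Among promoters from 250 bases before to 50 after the gene start, CCGGAA, the core bound by ETS factors, stood on either strand in 28.0% of 161 promoters of genes called higher in thymus, 15.4% of 123 promoters of genes called lower and 19.5% of 19177 promoters of genes tested. TGTGGT, the RUNX core, stood in 19.3%, 12.2% and 14.2%, and TGGGAA, the core bound by the Notch partner RBPJ, in 26.7%, 25.2% and 24.0%. Other motifs did not all go this way. CTTTGA, the TCF and LEF core, stood in 11.8%, 11.4% and 14.1%, and the E box CACCTG in 15.5%, 18.7% and 19.6%. Both were rarer in promoters of genes called higher than in all promoters. The E box CAGCTG stood in 16.8%, 17.1% and 16.3%. AGATAA, the GATA core, stood in 10.6%, 8.9% and 9.2%, and the EBF core in 1.2%, 0.0% and 1.0%. All these shares describe letters and were not tested.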
